A study of Mus musculus with 2 samples.

Results

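The Hox genes are the homeobox transcription factors of the Hoxa, Hoxb, Hoxc and Hoxd clusters, and their signals were read in the mouse ventral prostate, a lobe of secretory ducts that depends on androgen. Members were all probe sets that the platform annotation gives a single gene symbol of the form Hoxa, Hoxb, Hoxc or Hoxd followed by a number. This rule found 48 probe sets for 33 Hox genes, of 18193 genes with such probe sets on the array and of 39 Hox genes in the RefSeq gene table. Hoxb8 and Hoxd4 had only probe sets shared with a neighbouring gene, and the rest were not analysed here. The series held 2 samples of male C57BL/6J mice aged 3 months. One was wild type, U19/Eaf2 +/+, and the other was labelled U19/Eaf2 -/-, lacking both copies of an androgen-induced gene whose product binds ELL elongation factors. The sources used here do not give how the allele was made or whether glands of several mice were pooled. Each sample was hybridised to 1 array, so no test, standard deviation or p-value could be had, and every value below describes these 2 arrays.

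Hox proteins bind DNA through a homeodomain, usually with partners of the Pbx and Meis families, and give cells an address along the body axis. Genes at the same place in the 4 clusters form a paralogue group, numbered from 1, used towards the head, to 13, used in the hindmost body, which includes the urogenital sinus from which the prostate buds. Adult tissues tend to keep the Hox code of the region they came from, in stroma as well as in epithelium. Hoxb13 is known as a marker of prostate epithelium and is needed for secretory differentiation of the ventral lobe, and Hoxa13 and Hoxd13 shape the branching of the accessory glands.

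A signal of 166 or more counted as at the floor, which was the median of all probe-set signals that were not controls, pooled over both arrays. Each gene was represented by its brightest probe set, and entered the comparison of ratios when either array was at the floor. Probe sets differ in how well they bind their target, so a higher signal on 1 probe set than on another does not show more transcript, and signals are set against the floor and against the array's other signals only. In wild type 51.55% of probe sets other than controls reached the floor, and 48.45% did in the sample labelled knockout. Eaf2 itself read 691 and 702, and the sources used here do not say which part of the transcript was deleted. The label is thus not checked by Eaf2, the name "array labelled knockout" is used, and each direction rests on it. For Actb, the ratio of the 3' to the 5' control probe set was 1.25 in wild type and 1.65 on the array labelled knockout. Pairs of signals are given in that order throughout, wild type first. Prostate markers were bright on both arrays, with Spink1 at 62610 and 64718 and the prostate secretory gene Pbsn at 34870 and 26812. All 5 measured seminal vesicle markers, 2 epididymis markers and 7 neuronal markers were below the floor on both arrays in the probe set used, while Tgm4, made by the coagulating gland, read 274 and 121.

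Of the 33 Hox genes, 12 were at the floor on both arrays, 2 only on the wild-type array and 19 on neither. Thus 36.4% of Hox genes reached the floor on both arrays, against 57.3% of all 18193 genes. Of the 14 measured genes of groups 9 to 13, 7 were at the floor on both arrays. In groups 4 to 8 it was 3 of 12 genes, and in groups 1 to 3 it was 2 of 7. By cluster the counts were 5 of 9 in Hoxa, 3 of 9 in Hoxb, 1 of 7 in Hoxc and 3 of 8 in Hoxd. Within the Hoxd cluster genes at the floor alternated with genes below it, with Hoxd13, Hoxd10 and Hoxd8 at the floor and Hoxd12, Hoxd11 and Hoxd9 between them below. In Hoxb the genes at the floor lay at both ends, Hoxb13 at one and Hoxb2 and Hoxb3 towards the other. The count moved with the floor, to 18 at the 30th percentile and to 5 at the 70th, where Hoxa9, Hoxa10, Hoxa11, Hoxb13 and Hoxd13 were left, all from groups 9 to 13. On at least 1 array, 24 of 33 Hox genes and 14920 of all 18193 genes reached the 30th-percentile floor. For the 70th-percentile floor these counts were 5 and 8018. The share of all genes on both arrays was not counted at these floors.

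**Figure D1:**
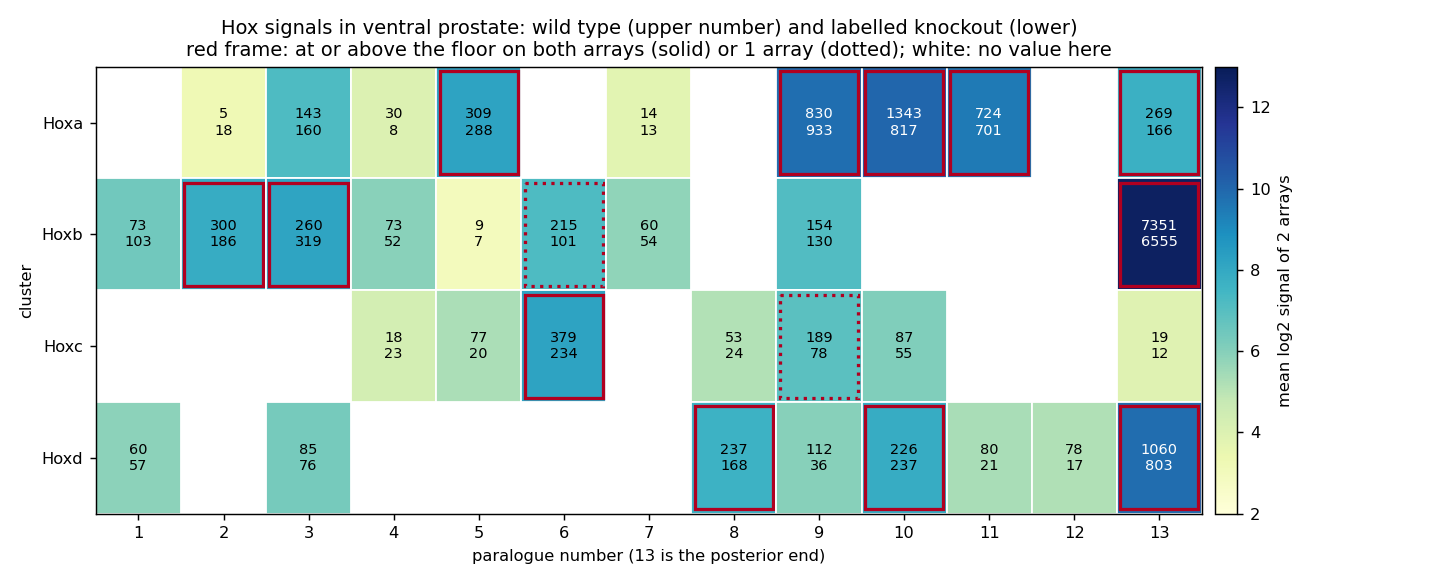
Map of the 33 measured Hox genes by cluster (rows) and paralogue number (columns), with the wild-type signal above and that of the array labelled knockout below it in each cell, and the colour giving the mean log2 signal. Solid red frames mark the 12 genes at the floor on both arrays, dotted frames mark the 2 genes at the floor on the wild-type array only, and white marks places with no value here.

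Group 13, the most posterior, had 3 of its 4 members at the floor on both arrays. Hoxb13 read 7351 in wild type and 6555 on the array labelled knockout, above 98.4% and 98.0% of probe sets that were not controls. Hoxd13, which patterns digits and genital tract, read 1060 and 803, above 85.5% and 81.5% of probe sets. Its second probe set stayed under the floor at 144 and 60.1. Hoxa13, which with Hoxd13 patterns the genital tubercle and urogenital sinus, read 269 and 166.3, so that on the array labelled knockout it lay just above the floor of 166.0. Hoxc13, known for its role in hair and nail keratins, read 19.4 and 11.5, under the floor on both arrays. The group was thus at the floor in 3 clusters and below it in Hoxc.

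In the Hoxd cluster Hoxd13 was at the floor and its immediate neighbour Hoxd12 was not, at 78.5 and 17.1. The 250 bases before the start of Hoxa13, Hoxd13 and Hoxd12 are shown to set the start regions of 2 group 13 genes at the floor beside that of a gene below it. They come from RefSeq on build GRCm38.p6, run 5′ to 3′ on the gene's strand, and have each CG dinucleotide, the site of DNA methylation, in capitals. The Hoxa13 window lies at chr6:52260881-52261130 on the minus strand, that of Hoxd13 at chr2:74667975-74668224 on the plus strand and that of Hoxd12 at chr2:74674763-74675012 on the plus strand.
Hoxa13: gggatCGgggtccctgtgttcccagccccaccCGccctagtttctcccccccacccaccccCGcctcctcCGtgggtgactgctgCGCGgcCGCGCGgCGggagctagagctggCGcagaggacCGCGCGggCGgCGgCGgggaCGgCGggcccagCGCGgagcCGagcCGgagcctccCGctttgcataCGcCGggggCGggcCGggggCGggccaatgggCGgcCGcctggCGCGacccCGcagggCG
Hoxd13: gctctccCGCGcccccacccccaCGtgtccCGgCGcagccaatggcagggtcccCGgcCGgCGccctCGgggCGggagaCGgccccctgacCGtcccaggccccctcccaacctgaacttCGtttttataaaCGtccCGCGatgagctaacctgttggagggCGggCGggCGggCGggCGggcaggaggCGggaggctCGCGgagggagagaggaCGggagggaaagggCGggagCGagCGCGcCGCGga
Hoxd12: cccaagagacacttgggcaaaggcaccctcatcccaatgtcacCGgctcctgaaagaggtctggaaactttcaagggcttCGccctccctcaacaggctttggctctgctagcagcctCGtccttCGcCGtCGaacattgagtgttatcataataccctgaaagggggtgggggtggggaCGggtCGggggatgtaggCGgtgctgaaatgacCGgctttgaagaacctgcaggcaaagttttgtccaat

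These windows held 35 CG dinucleotides in Hoxa13, 31 in Hoxd13 and 10 in Hoxd12. The RefSeq promoter table listed 24 such windows for 22 Hox genes, with a median of 12.5 CG dinucleotides, against a median of 6 over all 32851 windows. The 9 windows of 8 genes at the floor on both arrays had 3 to 35, with a median of 20, and the 12 windows of 11 genes below the floor had 2 to 24, with a median of 11. The ranges overlapped, and Hoxa9, at the floor, had 3. The letters TATAAA, searched on both strands, were found in 4 of 24 Hox windows, those of Hoxd13, Hoxa10, Hoxb8 and Hoxd4, and in 12.4% of all windows. CAATAAA, letters that group 13 homeodomains are known to bind, was found in 1 Hox window, that of Hoxb8, and in 4.20% of all windows. TGATTTAT, a site of Hox proteins with Pbx, was found in 0 Hox windows and 0.837% of all windows. The 3 sets of letters do not contain each other.

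Groups 9 to 12 were represented at the floor on both arrays by Hoxa genes and Hoxd10. Hoxa10, which patterns the reproductive tract, read 1343 and 817. Hoxa9, known for blood stem cells and the lower trunk, read 830 and 933 in its brighter probe set and 531 and 480 in its other. Hoxa11, needed for uterus, kidney and forearm, read 724 and 701. Hoxa9, Hoxa10 and Hoxa11 lay above 79.3% of probe sets or more on both arrays, and together with Hoxa13 they make a run of 4 successive cluster genes at the floor. Hoxd10, known for lumbar motor neurons and hindlimb, read 226 and 237, nearer the floor. Hoxc9 read 189 and 77.5, so that it was at the floor only in wild type. Hoxd9, Hoxd11, Hoxd12, Hoxb9 and Hoxc10 were below the floor on both arrays, with Hoxb9 the nearest at 154 and 130.

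Groups 4 to 8, which pattern the trunk, had 3 members at the floor on both arrays. Hoxc6, a gene measured in tests for human prostate cancer, read 379 and 234 in its brightest probe set and 335 and 227 in another, while a further probe set read 10.4 and 76.4. Hoxa5, known for lung and thoracic skeleton, read 309 and 288 in its brighter probe set but 111 and 80.8 in its other. The brighter is of the kind named _x_at, which can bind related sequences. Without probe sets named _s_at, _x_at or _a_at, Hoxa5 and Hoxa10 left the count of genes at the floor. Hoxd8 read 237 and 168.1, and its other probe set 70.1 and 8.67. Hoxb6 read 215 in wild type and 101 on the array labelled knockout. Hoxa4, Hoxa7, Hoxb4, Hoxb5, Hoxb7, Hoxc4, Hoxc5 and Hoxc8 were below the floor on both arrays. The probe set shared by Hoxb8 and Hoxb7 was below it too, at 52.5 and 54.9.

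Groups 1 to 3, known for the hindbrain and its neural crest, had Hoxb2 and Hoxb3 at the floor on both arrays. Hoxb2 read 300 and 186, and Hoxb3 read 260 and 319 in its brighter probe set and 123 and 84.8 in its other. Hoxa2, Hoxa3, Hoxb1, Hoxd1 and Hoxd3 were below the floor on both arrays. Of the 4 Hoxa3 probe sets, that used read 143 and 160, just under the floor, and the others 155 and 41.0, 89.0 and 100, and 12.7 and 85.6. The 2 probe sets shared by Hoxd4 and Hoxd3 read at most 46.7. Over the 19 Hox genes below the floor on both arrays, signals ran from 5.23 to 154 with a median of 73.2 in wild type and from 7.25 to 160 with a median of 23.7 on the array labelled knockout.

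**Figure D2:**
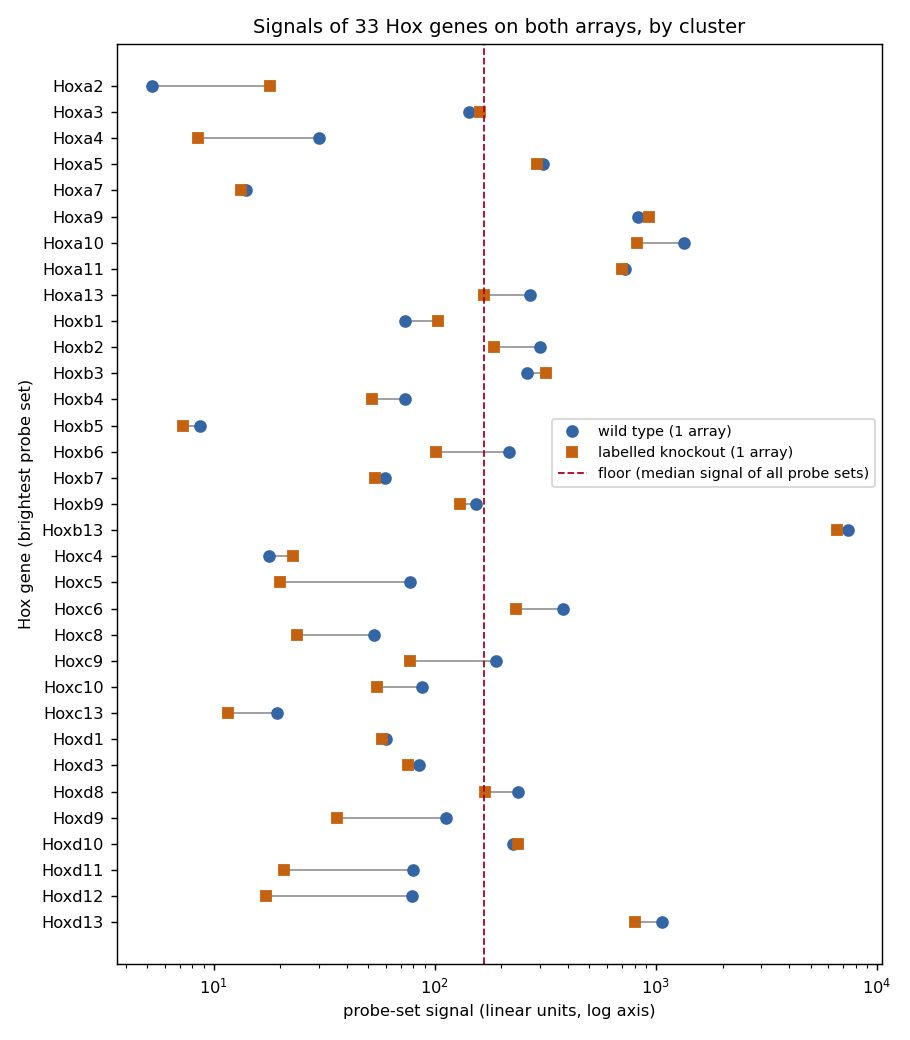
Signals of the brightest probe set of each of the 33 Hox genes, sorted by cluster and paralogue number, on a log axis, with circles for the wild-type array, squares for the array labelled knockout and a dashed line at the floor of 166. Hoxb13 stands at the right with 7351 and 6555, and Hoxb6 and Hoxc9 are the genes whose 2 signals straddle the floor.

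The comparison of the arrays asked which Hox genes read differently in the sample labelled as lacking U19/Eaf2. Ratios divide the labelled knockout's signal by the wild-type signal, and values below the floor were raised to it, so that a ratio with 1 array below the floor is a bound. Of the 14 Hox genes at the floor on at least 1 array, 0 were 2-fold higher and 0 were 2-fold lower, where 0.591% and 0.883% of all 11671 entering genes were. That split of 69 higher and 103 lower genes became 82 and 70 under quantile normalization and 86 and 60 under loess. Below 0 lay 11 of the 14 Hox ratios, with a median log2 ratio of -0.28, and 53.0% of all entering genes, with a median of -0.03. Hoxb6 and Hoxc9 entered through the wild-type array alone, so that their ratios could only lie below 0. Without such genes, 9 of 12 Hox ratios lay below 0, with a median of -0.28, and 50.8% of the 10431 genes at the floor on both arrays. The Hox median was -0.22 under quantile normalization and -0.24 under loess.

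Hoxa10 had the lowest ratio, at 1343 and 817, which is 1.64-fold lower and a log2 ratio of -0.72. Among 2371 genes whose mean log2 signal lay within 0.5 of it, the SD of the log2 ratio was 0.34, and 1.60% read as low or lower. That spread holds differences between the samples as well as error of the arrays, since neither could be separated with 1 array a group. Hoxa10 was picked as the lowest of 14 Hox ratios, so the 1.60% is not the share for a gene named beforehand. The other Hoxa10 probe set was below the floor on both arrays and read 72.0 and 83.7. The signal of Hoxa10 was therefore lower in the probe set that could be measured, with no second reading, and that probe set is of the kind named _a_at, which can bind several transcripts of a gene.

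Hoxc6, Hoxa13 and Hoxb2 had ratios close to that of Hoxa10. Hoxc6 was 1.62-fold lower, a log2 ratio of -0.70, and its other probe set at the floor had -0.56. Hoxa13 was 1.62-fold lower, also -0.70, in its only probe set, whose lower signal lay at the edge of the floor. Hoxb2 was 1.61-fold lower, a log2 ratio of -0.69, in its only probe set. Of genes with like signal, 10.5% read as low as Hoxc6, 6.99% as low as Hoxa13 and 7.37% as low as Hoxb2. Because values below the floor were raised to it, ratios of genes near the floor are limited in how low they can go. Some genes of like signal could thus not read as low as Hoxa13 or Hoxb2, and these shares are partly set by the floor. These 4 genes come from 3 clusters and from groups 2, 6, 10 and 13, and they were the Hox genes past 1.5-fold. Of all entering genes, 6.26% were 1.5-fold lower and 4.69% were 1.5-fold higher.

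Hoxd8 and Hoxd13 were lower by less. Hoxd8 was 1.41-fold lower, a log2 ratio of -0.49, where 16.2% of genes with like signal read as low, a share also partly set by the floor. Hoxd13 was 1.32-fold lower, a log2 ratio of -0.40, where 9.53% read as low. Hoxb6 was at least 1.30-fold lower and Hoxc9 at least 1.14-fold lower, both bounds set by the floor. With the floor at the 30th percentile their log2 ratios were -1.09 and -1.29, and they were then the 2 Hox genes past 2-fold, of 24 entering, where 3.38% of all 14920 entering genes were 2-fold lower and 1.36% 2-fold higher. With no floor at all, 8 of 33 Hox genes were 2-fold lower and 1 was 2-fold higher, where 10.4% and 5.32% of all genes were, and most of these Hox signals lay below the floor.

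Hoxb13, the brightest Hox signal, had a log2 ratio of -0.17, 1.12-fold lower, inside the SD of 0.32 of 424 genes with like signal. Hoxa11 had a log2 ratio of -0.05 and Hoxa5 of -0.10, and the sign of Hoxa5 turned under quantile normalization, at 0.018, and loess, at 0.035. Ratios above 0 were those of Hoxb3, at 0.30, Hoxa9, at 0.17, and Hoxd10, at 0.07. The 2 probe sets of Hoxa9 went opposite ways, at 0.17 and -0.15, so no direction was shared. These 6 ratios were smaller than the SD of genes with like signal, which was 0.32 to 0.45.

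**Figure D3:**
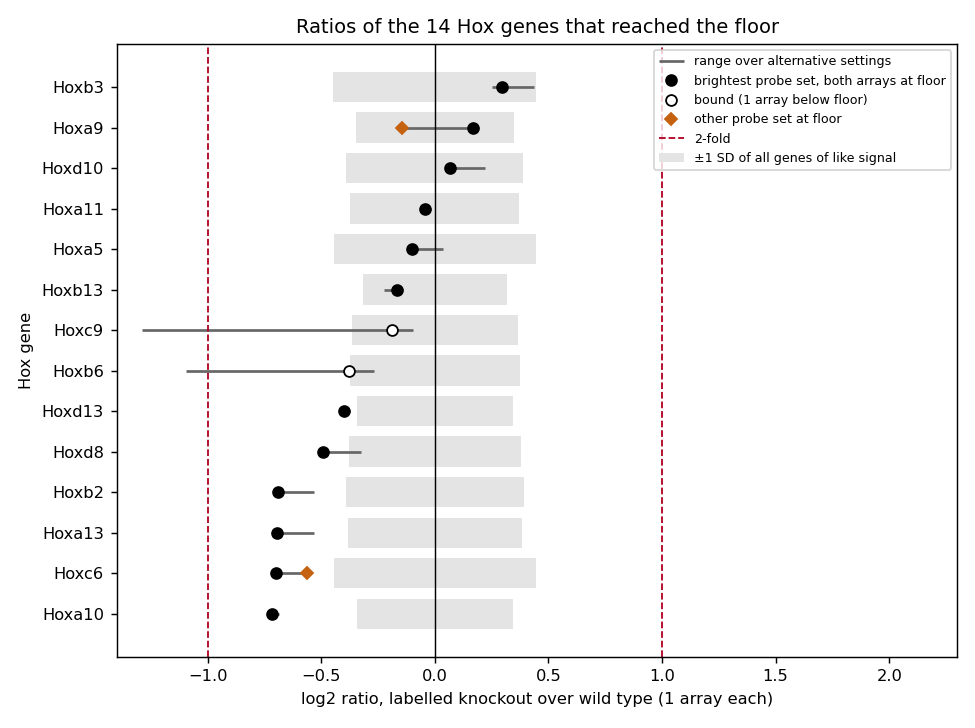
Log2 ratio, labelled knockout over wild type, for the 14 Hox genes at the floor on at least 1 array (filled circles, or open circles for bounds), with diamonds for other probe sets at the floor, lines for the range over alternative settings and grey bars for 1 SD around 0 of all genes with like signal. Hoxa10, Hoxc6, Hoxa13 and Hoxb2 sit near -0.7, Hoxb3 is highest at 0.30, and no filled or open circle reaches the dashed lines at 2-fold. Near the floor the SD is partly set by values raised to it.

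By position along the body axis, the 7 Hox genes of groups 9 to 13 at the floor on both arrays had a median log2 ratio of -0.17 with 5 of 7 below 0, and the 5 such genes of groups 1 to 8 had -0.49 with 4 of 5 below 0. The range was -0.72 to 0.17 in the posterior groups and -0.70 to 0.30 in the others, so the sets overlapped almost wholly. Across all genes, 2 probe sets of the same gene, both at the floor, differed in log2 ratio with an SD of 0.49 over 4497 genes and had the same sign in 54.9% of them. Only Hoxa9 and Hoxc6 had 2 probe sets at the floor on both arrays, and they disagreed in sign for Hoxa9 and shared it for Hoxc6. The second Hoxc6 probe set is of the kind named _x_at, which can bind related sequences, and whether both read the same stretch of RNA was not tested.

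**Figure D4:**
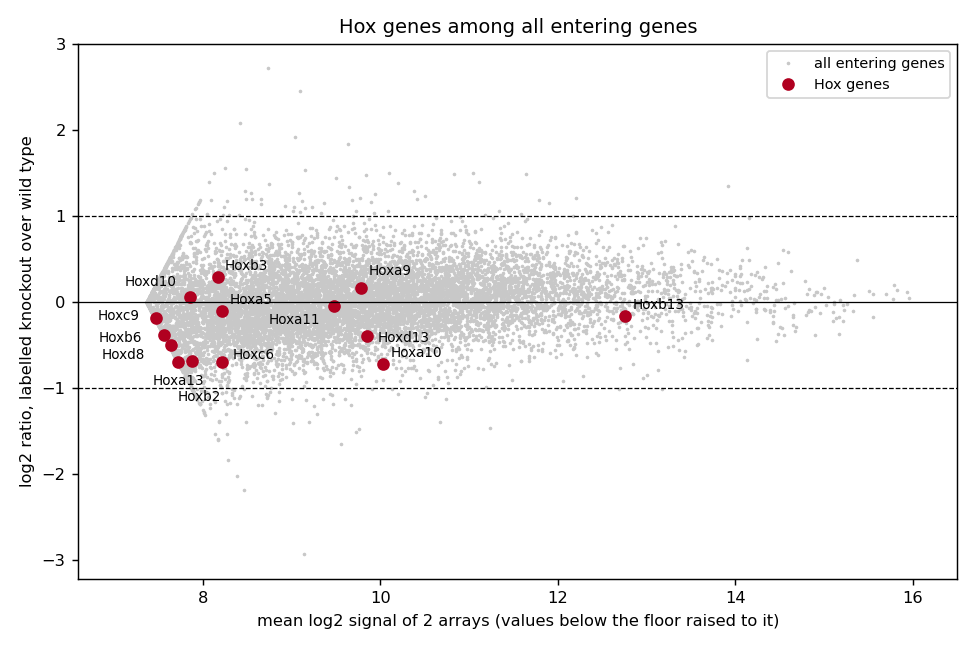
Log2 ratio against mean log2 signal for all 11671 entering genes (grey) and the 14 entering Hox genes (red, named), with dashed lines at 2-fold; the straight left edge comes from values raised to the floor. The Hox genes lie inside the grey cloud, most of them at low signal, with Hoxb13 alone at the bright end.

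The lower Hox signals came with lower signals of smooth muscle and fibroblast markers, and of several other marker lists. In this bulk tissue, fewer cells of a type and less RNA per cell cannot be told apart. Markers of smooth muscle, which sheathes the ducts, were below 0 in 8 of 8 genes, with a median log2 ratio of -0.57 and a summed signal of 52545 in wild type and 38598 on the array labelled knockout. Fibroblast markers were below 0 in 7 of 7, with a median of -0.47 and sums of 22203 and 18645, and Fbln2 was 2.17-fold lower. Both counts were the same under median centring, quantile normalization and loess. Luminal epithelial markers had 3 of 5 below 0, a median of -0.02, which turned to 0.00287 under median centring, and sums of 54434 and 56403. Ventral prostate secretion markers had 2 of 3 below 0, a median of -0.37 and sums of 139255 and 123799, with Spink1 at 0.05. Their median was -0.39 to -0.35 under median centring, quantile normalization and loess. Skeletal muscle markers had 2 of 2 entering genes below 0, of 7 measured, and a median of -0.41. Tgm4 of the coagulating gland was at least 1.65-fold lower. Urothelial markers had 3 of 4 entering genes below 0, a median of -0.54 and sums of 6868 and 4901 over 6 genes. Of these, Upk3b and Krt20 were below the floor on both arrays. Upk1b had -0.58 in the probe set used and -2.27 to -2.03 in 3 others. Basal epithelial markers had 1 of 3 entering genes below 0, Krt5 at -0.62, and a median of 0.04. Their sums over 4 genes were 1801 and 1515, with Krt14 below the floor on both arrays. Adipocyte markers had 1 of 4 entering genes below 0, Retn at -0.18, and a median of 0.73. Their sums were 1207 and 2887, with Lep below the floor on both arrays. Much of the rise in the sum was Car3, at 234 and 1278, 5.47-fold higher. Fabp4 had 0.84 with 0.03 in its other probe set, and Adipoq was at least 1.54-fold higher. Endothelial markers had 3 of 4 entering genes below 0 and a median of -0.06, which turned to 0.020 under quantile normalization and 0.021 under loess. Leukocyte markers had 1 of 3 below 0 and a median of 0.15. The part of any of these cells, or of the Actb ratio of 1.25 against 1.65, in the Hox ratios was not tested.

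Partners of Hox proteins on DNA, the TALE homeodomain genes, were measured for 8 of 9 list members, of which 6 entered and 0 differed by 2-fold. Of all 18193 genes 11671 entered, of which 0.591% were 2-fold higher and 0.883% 2-fold lower. Pknox2, a relative of Meis genes, read 2010 and 1502, a log2 ratio of -0.42 with -0.73 in its other probe set. Meis3 had -0.39, Pknox1 -0.12 with 1 of 2 other probe sets opposite, and Meis2 read 848 on both arrays. Meis1, a cofactor of Hoxa9, read 730 and 827, a log2 ratio of 0.18, with 1 of 2 other probe sets opposite at -0.78, and Pbx2 had 0.03. Pbx3 and Pbx4 were below the floor on both arrays. The list's median of -0.06 turned to 0.018 under quantile normalization and 0.025 under loess.

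Chromatin regulators that keep Hox genes off or on were at the floor on both arrays in nearly every case. Over all 18193 genes the share was 57.3%. Polycomb genes, which silence Hox clusters through histone H3 methylation and compaction, had 15 of 16 at the floor, 9 above 0 and 6 below, and 0 past 2-fold. Phc3 was highest at 0.61, with its other probe set opposite at -0.83, followed by Bmi1 at 0.43 and Jarid2 at 0.40, whose other probe sets all went the same way. Cbx8 at -0.46, Ezh1 at -0.41 and Ring1 at -0.37 were lowest. The Polycomb median of 0.03 turned to -0.016 under quantile normalization and loess. Trithorax and MLL genes, which keep Hox genes active, had 13 of 13 at the floor, 8 above 0 and 5 below, a median of 0.09 and 0 past 2-fold. Psip1, which tethers MLL to chromatin, had 0.68, with 1 of 2 other probe sets opposite, Wdr5 had 0.42 and Kdm6a 0.32. Dot1l had -0.65, Men1 -0.39 with its other probe set opposite, and Rbbp5 -0.38.

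Retinoic acid, which switches on anterior Hox genes in the embryo, had 10 of 15 measured genes entering, beside 11671 of all 18193 genes. The receptor Rxra was the only list member past 2-fold, at 1064 and 470, 2.26-fold lower, but its other probe set had 0.06. Aldh1a1, which makes retinoic acid, read 9534 and 8761, a log2 ratio of -0.12. The binding protein Crabp1 had -0.25, Rxrg -0.16, Rxrb 0.21, Dhrs3 0.18 and Aldh1a3 0.07. The degrading enzyme Cyp26a1 was below the floor on both arrays, at 151 and 45.1. Cyp26b1, on the same list, was at the floor on both, at 173 and 179. The list's median of -0.07 turned to 0.00411 under quantile normalization and 0.00177 under loess.

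Other transcription factors with regional roles were at the floor on both arrays in 12 of 31 measured genes, against 57.3% of all 18193 genes. Foxa1, a pioneer factor of prostate epithelium, read 12289 and 14289, and Sox9 1508 and 1603. Otx2, En1 and Gbx2 of the brain, Cdx1 and Cdx2 of the gut and Pax6 of the eye were below the floor on both arrays. So were Foxa2, Tbx2, Tbx18, Pax8, Lhx1, Wt1, Emx2, Osr2, Cdx4, Evx1, Pitx1 and En2. The list was drawn from the urogenital tract as well as from other regions. Tbx5 of the forelimb and heart, at 216 and 251, the limb gene Prrx1, at 275 and 239, Isl1, at 669 and 691, and Sox2, at 414 and 403, were at the floor on both. Of 13 entering genes 5 lay above 0 and 8 below, with a median log2 ratio of -0.05 and 0 past 2-fold. Six2, a mesenchymal homeobox gene, read 621 and 342, a log2 ratio of -0.86, its partner Eya1 had -0.68, with -0.06 in its other probe set, and Evx2, next to Hoxd13 in the genome, -0.62. Gata3 was highest at 0.58, then Foxa1 at 0.22 and Tbx5 at 0.21.

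Of 10 noncoding RNAs of the Hox clusters, 3 were measured. Hoxa11os, which overlaps Hoxa11 on the opposite strand, read 823 and 834, a log2 ratio of 0.02 beside -0.05 for Hoxa11. Whether the signals of these overlapping genes were fully separated by strand was not tested. Hoxb5os read 254 and 149, at least 1.53-fold lower, while its host region's Hoxb5 was below the floor on both arrays at 8.67 and 7.25. Hoxd3os1 was below the floor on both arrays.

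**Figure D5:**
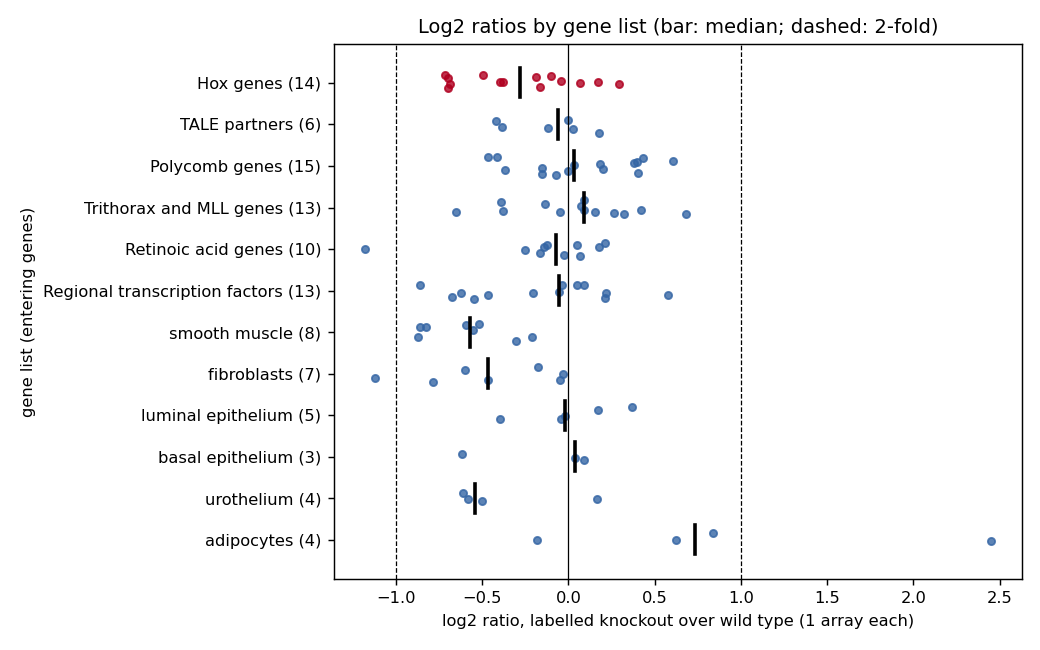
Log2 ratio of each entering gene in the Hox genes (red), 5 lists of related genes and 6 lists of cell type markers (blue), with a bar at each median and dashed lines at 2-fold. The Hox median of -0.28 lies between that of the fibroblast markers, -0.47, and those of the related lists, -0.07 to 0.09, and smooth muscle and fibroblast markers lie wholly below 0.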

How the data were processed

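The values were linear probe-set intensities, deposited as signals of 45101 probe sets on 2 Affymetrix arrays. The software GCOS 1.4 is named by the submitters' processing notes, with settings that the sources used here do not give. The trimmed mean of the deposited intensities, with 2% left out at each end, was 500.0 for either array, which shows scaling of whole arrays. Detection calls were not used here.

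Gene symbols came from the platform annotation, and only probe sets with a single symbol were used for genes. The probe set brightest by mean log2 signal stood for a gene. It entered where its higher array reached the floor, the 50th percentile of non-control signals, and lower values were raised to it with no pseudocount. The threshold was 2-fold. Genes named by rule are the measured Hox genes and, in lists of related genes, the 3 highest and 3 lowest by ratio and any past 2-fold. Other list members named, and markers, were chosen after their values were seen. Members and lists were chosen with earlier results of these data known. Alternatives were median centring, quantile normalization, loess (span 0.4), other floors, a pseudocount of 50, other choices of probe set and other thresholds. Calculations used Python 3.11.15, numpy 2.4.6, pandas 2.3.3 and statsmodels 0.14.6 and were tested on simulated data. The number of arrays limits the precision.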

Additional observations from a re-analysis of the deposited data

How the results depend on the processing

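No paired analysis was possible because each group holds 1 array, and no array could be left out. The count of 12 Hox genes at the floor on both arrays fell to 5 with a 70th-percentile floor and lay between 10 and 18 under the other 5 alternatives. The share of all genes at the floor on both arrays was not counted under these alternatives. The count of Hox genes 2-fold lower, 0 as reported, was 2 of 24 with a 30th-percentile floor, 8 of 33 with no floor and 4 of 14 at a 1.5-fold threshold, where 3.38%, 10.4% and 6.26% of all genes were lower. That of genes 2-fold higher was 1 with no floor, where 5.32% of all genes were. Both were 0 under every other alternative tried. The Hox median stayed below 0 in all 10 alternatives, from -0.40 with no floor to -0.17 with a 70th-percentile floor, where 5 genes entered. Of 128 values of single Hox ratios under alternatives, 119 moved by less than 0.35, the SD per probe set between probe sets of the same gene, and kept their sign. The 3 that turned sign were Hoxa5 at 0.018 under quantile normalization and 0.035 under loess, and Hoxa9 at -0.15 when the probe set nearest a ratio of 1 stood for the gene. The other 6 were Hoxb6 and Hoxc9 with a lower floor, none, or a pseudocount of 50.

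Medians of related lists close to 0 changed sign. That of TALE partners, -0.06, was 0.018 under quantile normalization, 0.025 under loess, 0.013 with a 70th-percentile floor and 0.027 without probe sets named _s_at, _x_at or _a_at. That of Polycomb genes, 0.03, was -0.016 under quantile normalization and loess and -0.071 with the median over probe sets. That of retinoic acid genes, -0.07, was 0.00411 under quantile normalization, 0.00177 under loess and 0.049 without such probe sets. That of the noncoding RNAs, -0.30 over 2 genes, was 0.020 with a 70th-percentile floor, which left 1 gene. Trithorax and regional lists kept their sign in the 7 alternatives run. The cause of these changes was not tested.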

Other observations

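Below the floor, where signals cannot be told from background gene by gene, 15 of 19 Hox genes read lower on the array labelled knockout, against 60.7% of 6522 genes below the floor on both arrays. Hoxd12 was among them, at 78.5 in wild type and 17.1 on the array labelled knockout, as were Hoxd11 at 80.0 and 20.8 and Hoxd9 at 112 and 36.0, while Hoxd10, which lies between Hoxd11 and Hoxd9 and was at the floor, read 226 and 237. Hoxa2 read higher on the array labelled knockout, at 5.23 and 18.0. The median signal of all non-control probe sets was 176.6 in wild type and 154.4 on the array labelled knockout, the same direction as most of these genes. Hoxd12 lay above 31.3% of probe sets in wild type and 14.4% on the array labelled knockout. The shares were 31.7% and 16.4% for Hoxd11, 39.0% and 22.8% for Hoxd9, and 3.29% and 14.9% for Hoxa2. The part of the array medians in these signals was not tested.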
